A study of Mus musculus with 9 samples.

Results

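IFIT and Mx genes encode antiviral effectors of the type I interferon response, and 7 of them were followed in mouse dendritic cells (DCs): *Ifit1*, *Ifit1bl1*, *Ifit2*, *Ifit3*, *Ifit3b*, *Mx1* and *Mx2*. They were chosen by name, with 1 row for each among the 55471 genes in the deposited counts, and all 7 were among the 16260 genes that passed the filter on low counts and were tested. The DCs were grown with GM-CSF at 20 ng/mL from bone marrow of wild-type C57BL/6 female mice aged 8 to 20 weeks, with no transgene or knockdown named for these samples. They were left unstimulated, or received LPS at a dose of 100 ng/mL, or IFN-β at a dose of 1000 U/mL, and all were taken after 6 h. Each of the 3 conditions had 3 libraries, with the letters A, B and C. GM-CSF cultures are mixed populations of DCs and macrophage-like cells. LPS, from the outer membrane of bacteria, is sensed by TLR4. IFN-β belongs to the type I interferons.

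IFIT proteins are built from tetratricopeptide repeats and bind viral RNA or other IFIT proteins, and they are named for their induction by interferon. Mx proteins are dynamin-like GTPases, of which mouse Mx1 acts in the nucleus against influenza-like viruses and Mx2 in the cytoplasm. Type I interferon binds the receptor formed by IFNAR1 and IFNAR2, and the kinases JAK1 and TYK2 then pass the signal to the complex ISGF3, which contains IRF9. ISGF3 binds the interferon-stimulated response element (ISRE) in promoters. LPS can reach the same pathway through IRF3, which switches on the IFN-β gene, and through NF-κB it also switches on inflammatory cytokines.

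The 5 *Ifit* members lie in a cluster on chromosome 19 (GRCm38, chr19:34550694-34650009), and the *Mx* genes lie together on chromosome 16 (chr16:97447035-97560900). In the GENCODE annotation, the *Ifit* members run in the order *Ifit2* (plus strand, starting at 34550694), *Ifit3* (plus, 34583531), *Ifit1bl1* (minus, ending at 34601956), *Ifit3b* (plus, 34607970) and *Ifit1* (plus, 34640871). *Ifit1bl2*, which is not a member, lies between *Ifit3b* and *Ifit1* on the minus strand. *Mx1* is on the minus strand (chr16:97447035-97462907) and *Mx2* on the plus strand (chr16:97535308-97560900). The annotations differ on the *Mx* genes: GENCODE lists *Mx1* as protein coding and *Mx2* as a polymorphic pseudogene, and RefSeq lists both as transcribed pseudogenes in this C57BL/6 assembly. The DCs came from C57BL/6 mice, the strain of this assembly, so the *Mx* values below are RNA levels and not levels of antiviral protein. Whether the *Mx* RNA counted here gives a working protein in these cells was not measured. The exons of the 7 genes overlap those of no other annotated gene.

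Members of the cluster resemble each other, which limits how far their reads can be told apart. The transcripts of *Ifit3* and *Ifit3b* were 98% identical over the aligned bases, those of *Mx1* and *Mx2* 84%, and those of *Ifit1* and *Ifit1bl1* 77.6%. Of all 100-base stretches of the *Ifit3* transcript, 31.7% also occur in *Ifit3b*, and 27.4% of those of *Ifit3b* occur in *Ifit3*. The share was 3.29% for *Ifit1* and 0.524% for *Ifit1bl1*, both shared with *Ifit1bl2*, 1.25% for *Mx1*, 1.72% for *Mx2* and 0% for *Ifit2*. The authors' counting kept reads that mapped to 1 place, so that reads from shared stretches may be missing from the counts of *Ifit3* and *Ifit3b*, whose values are uncertain to that extent. A read pair with 1 end outside such a stretch can still map to 1 place, and the loss was not measured.

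Sequence upstream of the start sites was searched for an ISRE, since ISGF3 acts through this element. Among the RefSeq windows of 250 bases before a start site (GRCm38.p6), a spelling of it, GAAA and GAAACT with any 2 bases between them, was found on either strand in 0.222% of 32851 windows, and a shorter one that ends in GAAA, and that every longer match contains, in 2.98%. Windows were given for the 5 *Ifit* members. *Ifit1* had 2 matches of the longer motif, *Ifit3* and *Ifit3b* had 1 each with a further match of the shorter one, *Ifit1bl1* had only 1 shorter match in each of its windows, and *Ifit2* had neither. The stretches of *Ifit1*, *Ifit3*, *Ifit3b* and *Ifit1bl1* are printed because they show how the motif differs between the members, on the strand of each gene and with the matches in capitals. The window of *Ifit1* is cut to the stretch outside annotated exons, chr19:34640744-34640870. The others are chr19:34583279-34583528 for *Ifit3*, chr19:34607707-34607956 for *Ifit3b* and chr19:34601969-34602218 for *Ifit1bl1*.
Ifit1: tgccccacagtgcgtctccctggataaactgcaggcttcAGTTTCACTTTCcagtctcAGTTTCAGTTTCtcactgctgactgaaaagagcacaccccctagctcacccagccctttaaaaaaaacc
Ifit3: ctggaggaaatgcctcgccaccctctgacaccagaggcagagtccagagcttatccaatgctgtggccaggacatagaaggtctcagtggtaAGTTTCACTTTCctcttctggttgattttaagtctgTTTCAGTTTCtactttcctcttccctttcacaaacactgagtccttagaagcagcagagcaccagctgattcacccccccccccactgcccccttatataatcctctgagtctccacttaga
Ifit3b: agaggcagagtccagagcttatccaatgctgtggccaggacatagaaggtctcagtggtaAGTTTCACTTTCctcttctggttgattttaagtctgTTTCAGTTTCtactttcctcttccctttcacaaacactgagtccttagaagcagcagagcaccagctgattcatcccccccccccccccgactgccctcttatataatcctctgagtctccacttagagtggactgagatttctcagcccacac
Ifit1bl1: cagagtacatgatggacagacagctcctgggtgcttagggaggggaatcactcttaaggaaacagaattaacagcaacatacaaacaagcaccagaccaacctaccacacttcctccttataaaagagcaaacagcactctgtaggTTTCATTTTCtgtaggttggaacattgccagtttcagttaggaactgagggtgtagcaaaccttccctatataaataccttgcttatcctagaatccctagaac

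The stretch printed for *Ifit1* also lies directly before *Ifit1bl2*, which is read in the opposite direction, so that both genes have the same pair of matches between them. With gaps left out, the windows of *Ifit3* and *Ifit3b* were identical at 217 of 218 aligned bases. They also differ in the length of the run of C between the matches and the start. The spacing of the matches was the same in both. The longer match began 158 bases before the start of *Ifit3* and 190 bases before that of *Ifit3b*. The second, shorter match began 122 and 154 bases before these starts. A match describes these letters and shows no binding. Only these spellings in the 250 bases before a listed start were searched. The lack of a match before *Ifit2* therefore does not show that this gene has no ISRE.

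Libraries held 33425803 to 43735199 gene counts each (median 36843765). Levels are CPM, the count of a gene scaled to the size of its library, after scaling with TMM factors, which adjust the library size for composition. These factors differed by condition: unstimulated libraries had 1.18 to 1.26, those with IFN-β 0.977 to 1.02 and those with LPS 0.783 to 0.841. Of 16 markers of DCs and macrophages, none was at 0 in any group, although *Cd209a* had only 26, 1 and 5 counts in unstimulated, LPS-activated and IFN-β-treated DCs, and the list summed to 10500 to 12000 CPM in unstimulated, 12700 to 13900 in LPS-activated and 11800 to 12600 in IFN-β-treated DCs, so that the LPS libraries lay above the others. The lists for B cells, erythroid cells and mast cells summed to at most 0.531 CPM in any library. The 6 genes of T cells were low but moved with the groups, at 0.606 to 0.925 CPM in unstimulated, 3.18 to 4.37 with LPS and 1.26 to 1.93 with IFN-β, most of it *Lck* when stimulated (345 and 125 counts), with *Cd3g* at 1, 0 and 0 counts. A further 4 lists also moved: the 4 genes of plasmacytoid DCs summed to 36.4 to 44.2 CPM in unstimulated, 209 to 255 in LPS-activated and 73.3 to 95.7 in IFN-β-treated DCs, and nearly all of it was *Tcf4*, with *Siglech* at 2, 0 and 0 counts. The 4 genes of NK cells summed to 1.85 to 2, 9.53 to 16.3 and 12.6 to 18.2 CPM in the same order (mostly *Klrk1*, with *Ncr1* at 0, 2 and 0 counts). The 5 genes of fibroblasts summed to 3.14 to 5.01, 21.6 to 37.8 and 3.26 to 5.08 CPM (in LPS-activated DCs mostly *Pdgfrb*), and the 7 genes of neutrophils, nearly all *Mmp8*, summed to 360 to 464, 238 to 306 and 329 to 418 CPM. The part of these markers in the values below was not tested. In RNA from whole cultures, a change in the number of cells that express a gene and a change in its RNA per cell cannot be told apart. Nothing in the sources says that the 3 libraries of a group came from separate cultures or animals, so p-values measure the spread between these libraries, which may be technical.

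The unstimulated libraries were not alike in these genes. Library A held the most and library C the least of all 5 *Ifit* members, and the level in A was 3.64 times that in C for *Ifit1*, 7.20 for *Ifit1bl1*, 7.42 for *Ifit2*, 6.04 for *Ifit3* and 6.47 for *Ifit3b*. *Mx1* and *Mx2* differed less, with 1.22 and 1.81 times the level. Among the 14973 genes with at least 10 counts in every unstimulated library, the median ratio of A to C was 1.01 and 0.608% had a ratio above 3, as did all 5 *Ifit* members. In a list of 31 other interferon-induced effectors the median ratio was 2.11 (range 0.901 to 5.83). *Ifnb1*, the IFN-β gene itself, had 0, 0 and 1 counts in unstimulated A, B and C. Within the stimulated groups the same ratio was smaller. For the *Ifit* members it was 1.29 to 1.79 with LPS and 1.14 to 1.30 with IFN-β, and for the *Mx* genes it was 1.13 and 1.28 under LPS and 0.875 for both under IFN-β.

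**Figure D1:**
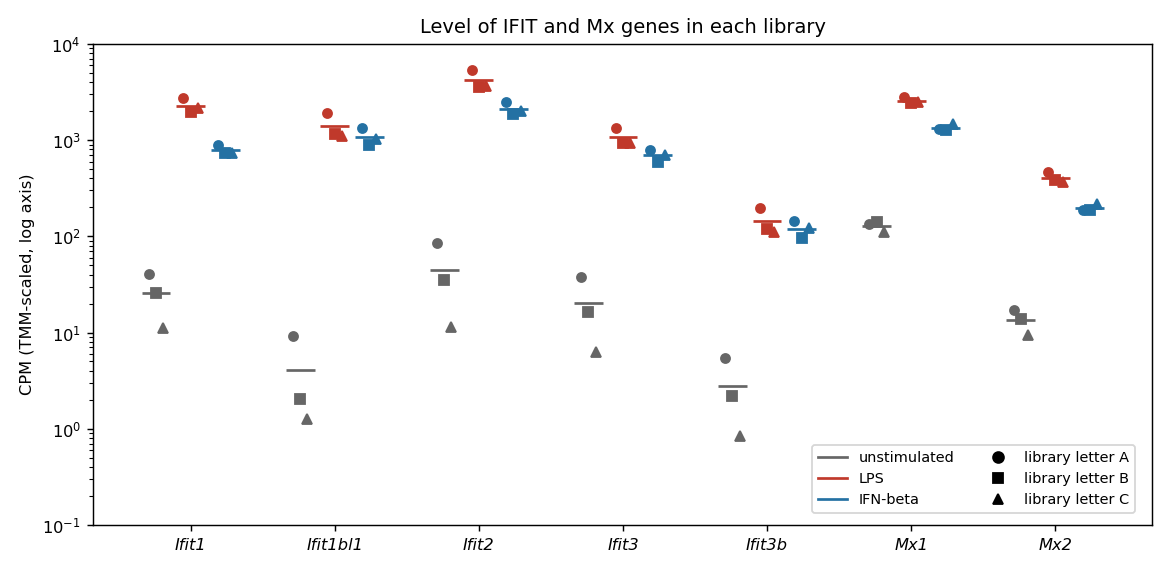
Level of each gene in the 9 libraries, as CPM on a log axis, colored by condition and with 1 symbol per library letter. Horizontal lines are means of 3 libraries. For every gene the 6 stimulated libraries lie above the 3 unstimulated ones, and the unstimulated libraries spread most for the *Ifit* genes, for example 11.5 to 85.5 CPM for *Ifit2*.

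To compare how strongly the RNA of the 7 genes responded to a bacterial and to an antiviral stimulus, each stimulus was first set against unstimulated DCs. All 7 genes were higher in LPS-activated DCs (edgeR quasi-likelihood test, Benjamini-Hochberg adjusted p-values), with log2 fold changes from 4.32 for *Mx1* to 8.42 for *Ifit1bl1*. The same 7 were higher in IFN-β-treated DCs, from 3.39 for *Mx1* to 8.05 for *Ifit1bl1*. In both comparisons every stimulated library lay above every unstimulated one for all 7 genes. Of all tested genes, 32.8% were higher with LPS and 35.4% lower, and 23.6% were higher with IFN-β and 23.3% lower. Complete separation of the libraries upward occurred in 34.6% of genes with LPS and in 28.5% with IFN-β. The comparisons share the unstimulated libraries, so the agreement of their directions is not independent.

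*Ifit1*, which recognizes the cap structure of foreign RNA, was at 40.7, 25.9 and 11.2 CPM in unstimulated A, B and C, at 2770, 1960 and 2140 CPM with LPS and at 894, 727 and 744 CPM with IFN-β. The 3 conditions did not overlap, with LPS on top. The log2 fold change was 6.47 (SE 0.43, adjusted p = 2.7e-07) for LPS and 4.93 (SE 0.40, adjusted p = 6.8e-06) for IFN-β.

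*Ifit1bl1*, an *Ifit1*-like gene, had 9.10, 2.02 and 1.26 CPM in unstimulated A, B and C, or 359, 90 and 56 counts. It reached 1910, 1170 and 1100 CPM with LPS and 1330, 888 and 1020 CPM with IFN-β. At rest its mean CPM was above only that of *Ifit3b*, and with IFN-β it was below only those of *Ifit2* and *Mx1*. Its stimulated groups overlapped each other. The log2 fold change was 8.42 (SE 0.69, adjusted p = 1.2e-06) for LPS and 8.05 (SE 0.68, adjusted p = 8.3e-06) for IFN-β. It ranked 17th from the top of 16260 genes with LPS and 3rd with IFN-β.

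*Ifit2*, whose protein has been linked to RNA binding and cell death, was at 85.5, 35.5 and 11.5 CPM in unstimulated A, B and C, at 5330, 3590 and 3640 CPM with LPS and at 2500, 1860 and 2020 CPM with IFN-β. It had the highest CPM of the 7 genes in every stimulated library, and its 3 conditions did not overlap. The log2 fold change was 6.57 (SE 0.64, adjusted p = 5.2e-06) for LPS and 5.59 (SE 0.62, adjusted p = 4.8e-05) for IFN-β.

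*Ifit3*, a partner of other IFIT proteins, was at 37.6, 16.4 and 6.23 CPM without stimulation, at 1340, 943 and 927 CPM with LPS and at 796, 591 and 700 CPM with IFN-β. Its near copy *Ifit3b* was at 5.40, 2.20 and 0.835 CPM, at 198, 120 and 111 CPM and at 144, 95.9 and 121 CPM in the same order. The stimulated groups of *Ifit3* were apart and those of *Ifit3b* overlapped. The log2 fold changes for LPS were 5.74 (SE 0.55, adjusted p = 4.5e-06) for *Ifit3* and 5.69 (SE 0.50, adjusted p = 2.3e-06) for *Ifit3b*. For IFN-β they were 5.12 (SE 0.54, adjusted p = 3.4e-05) and 5.44 (SE 0.50, adjusted p = 1.4e-05).

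*Mx1* was at 135, 142 and 111 CPM in unstimulated A, B and C, the highest of the 7 genes at rest, and rose to 2820, 2420 and 2500 CPM with LPS and to 1300, 1280 and 1480 CPM with IFN-β. *Mx2* was at 17.1, 13.7 and 9.45 CPM, at 472, 383 and 367 CPM and at 188, 190 and 215 CPM in the same order. For both genes the 3 conditions did not overlap, and LPS was highest. The log2 fold changes for LPS were 4.32 (SE 0.13, adjusted p = 2.4e-09) for *Mx1* and 4.92 (SE 0.20, adjusted p = 1.3e-08) for *Mx2*. For IFN-β they were 3.39 (SE 0.12, adjusted p = 1.8e-07) and 3.88 (SE 0.20, adjusted p = 7.8e-07). *Mx1* thus had the smallest fold change of the 7 genes and the smallest error.

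Because the unstimulated libraries differed, the fold change of the *Ifit* genes depended on which of them was used. Compared within letters, the log2 difference of *Ifit2* from unstimulated DCs was 5.96, 6.66 and 8.30 for LPS in A, B and C and 4.87, 5.71 and 7.45 for IFN-β. The corresponding values of *Mx1* were 4.39, 4.09 and 4.49, and 3.27, 3.17 and 3.74. Without unstimulated library A or C, or any other library, all 7 genes stayed past the threshold in both comparisons, and the largest adjusted p-value among these fits was 0.00057 (*Ifit2* with IFN-β). Leaving out 1 library moved the log2 fold change of *Ifit1bl1* with LPS between 7.98 and 9.72, and that of *Mx1* between 4.21 and 4.38.

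**Figure D2:**
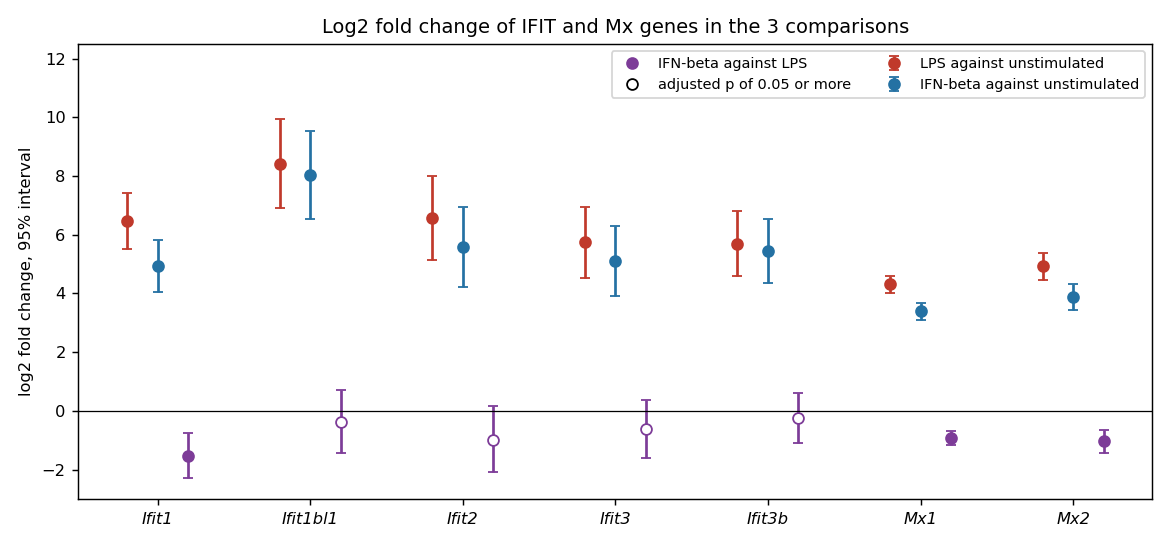
Log2 fold change of each gene in the 3 comparisons, with 95% intervals from the edgeR model over 9 libraries. Filled points passed the adjusted p threshold of 0.05, and open points did not. Both stimuli lie above 0 for all 7 genes, with *Ifit1bl1* highest, and the direct comparison of IFN-β with LPS lies below 0, with 3 of the 7 past the threshold. The point of *Ifit3b* in that comparison is just above 0 when libraries are scaled by size only.

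The stimuli were then compared with each other. *Ifit1*, *Mx1* and *Mx2* were lower in IFN-β-treated than in LPS-activated DCs, and no member was higher. In all tested genes 23.3% were lower and 25.8% higher in this comparison. *Ifit1* had the largest difference, with a log2 fold change of -1.54 (SE 0.34, adjusted p = 0.0037), so that LPS-activated DCs held 2.90 times as much. *Mx1* differed by -0.93 (SE 0.11, adjusted p = 6.6e-05) and *Mx2* by -1.04 (SE 0.17, adjusted p = 0.00056). These 3 genes kept their call under all 16 alternative fits, including each left-out library.

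For the other 4 genes the difference did not pass the threshold in the fit over 9 libraries, and the intervals of that fit are given. Their spread was estimated with the unstimulated libraries included, in which the *Ifit* genes varied most. The log2 fold change was -0.98 for *Ifit2* (95% interval -2.10 to 0.15, adjusted p = 0.14) and -0.62 for *Ifit3* (-1.62 to 0.37, adjusted p = 0.28). It was -0.37 for *Ifit1bl1* (-1.44 to 0.71, adjusted p = 0.56) and -0.24 for *Ifit3b* (-1.10 to 0.61, adjusted p = 0.63). Every IFN-β library was below every LPS library for *Ifit1*, *Mx1*, *Mx2*, *Ifit2* and *Ifit3*, which occurred in 27.3% of all genes. *Ifit1bl1* and *Ifit3b* overlapped.

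*Ifit2* and *Ifit3* were those whose call depended on the fit. Both passed without a filter on low counts (adjusted p = 0.0021 and 0.038). With the library letter as a block, the log2 fold change of *Ifit2* was -0.94 and passed (adjusted p = 0.019), and that of *Ifit3* was -0.59 (adjusted p = 0.079). In a fit of only the 6 stimulated libraries both passed, with -0.95 for *Ifit2* (adjusted p = 0.0019) and -0.60 for *Ifit3* (adjusted p = 0.013). *Ifit2* also passed without unstimulated library A (adjusted p = 0.032) or C (adjusted p = 0.015). *Ifit1bl1* and *Ifit3b* passed in none of the 16 alternative fits. Within letters A, B and C, *Ifit2* differed by -1.09, -0.95 and -0.85, and *Ifit3* by -0.75, -0.68 and -0.41. In the same order, *Ifit3b* differed by -0.46, -0.32 and 0.13, and *Ifit1bl1* by -0.52, -0.40 and -0.11. The difference for *Ifit3b* turned to 0.04 when libraries were scaled by size only and to 0.06 without LPS library A.

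**Figure D3:**
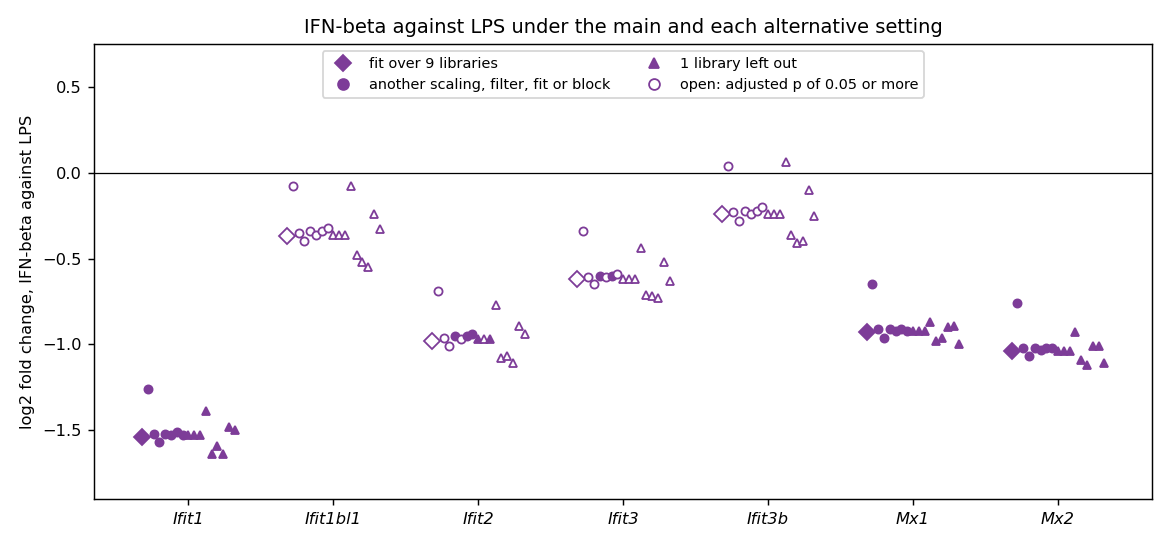
Log2 fold change of IFN-β against LPS for each gene under the main fit (diamond), other scalings, filters or models (circles) and with 1 library left out (triangles). Filled symbols passed the adjusted p threshold of 0.05. *Ifit1*, *Mx1* and *Mx2* are filled in every setting, *Ifit2* in 5 of 16 alternatives, *Ifit3* in 2, and *Ifit1bl1* and *Ifit3b* in none, with *Ifit3b* above 0 under size-only scaling and without LPS library A.

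Levels of different genes were compared per kilobase of exon. In unstimulated DCs *Mx1* was highest at 34.2 CPM per kilobase (SD 4.34, n = 3) and did not overlap the next genes, *Ifit3* (11.5, SD 9.17), *Ifit2* (11.2, SD 9.61) and *Ifit1* (9.76, SD 5.56). Below them were *Mx2* (3.72, SD 1.06), *Ifit1bl1* (1.83, SD 1.91) and *Ifit3b* (1.41, SD 1.17), and each neighbor in this order below *Mx1* overlapped the next.

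With LPS the order was *Ifit2* (1070, SD 252), *Ifit1* (862, SD 159), *Mx1* (681, SD 55.5), *Ifit1bl1* (616, SD 198) and *Ifit3* (613, SD 134), and these neighbors overlapped. *Mx2* (113, SD 15.6) and *Ifit3b* (71.4, SD 24.1) were lower and apart from each other. With IFN-β the order was *Ifit2* (542, SD 83.9), *Ifit1bl1* (477, SD 101), *Ifit3* (399, SD 58.9), *Mx1* (358, SD 29.6) and *Ifit1* (297, SD 34.7), all CPM per kilobase. Only *Mx1* and *Ifit1* among these neighbors did not overlap. *Ifit3b* (60.2, SD 12.1) and *Mx2* (54.8, SD 4.21) overlapped at the bottom.

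Among 16239 tested genes with an exon length, *Ifit1bl1* ranked 9609th per kilobase in unstimulated DCs, 71st with LPS and 53rd with IFN-β. *Ifit2* ranked 3225th, 42nd and 49th, and *Mx1* 970th, 62nd and 92nd. The 7 genes together took 0.0292% of all counts in unstimulated DCs (SD 0.00995, n = 3), 0.984% with LPS (SD 0.153) and 0.631% with IFN-β (SD 0.0623).

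Because all 7 genes were measured in the same libraries, their make-up could be compared without scaling between libraries. The 7 shares add up to the whole in each library, so a lower share of any gene is matched by higher shares of others. A higher share can therefore go with a level that is not higher. *Ifit1* made up 20.9, 21.0 and 22.6% of the summed per-length level in LPS libraries A, B and C and 13.6, 14.3 and 13% in IFN-β libraries. *Ifit1bl1* made up 16.9, 14.7 and 13.6% with LPS and 23.7, 20.5 and 20.9% with IFN-β. The share of *Ifit1* was lower and that of *Ifit1bl1* higher with IFN-β, with no overlap and in the same direction within all 3 letters. The mean differences were -7.89 and 6.59 percentage points (two-sided exact permutation test, p = 0.1 for each, the smallest possible with 3 against 3, and 0.14 after Benjamini-Hochberg adjustment over the 7 genes). The test could therefore not reach 0.05.

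*Ifit3* had a higher share with IFN-β (18.2%, SD 0.492) than with LPS (15.2%, SD 0.283), as had *Ifit3b* (2.74%, SD 0.211, against 1.75%, SD 0.223). *Ifit2* had a lower share (24.7%, SD 0.870, against 26.4%, SD 0.710), and these 3 genes did not overlap between the stimuli either (p = 0.1 for each by the same exact permutation test). With counts not divided by length, the shares of *Ifit2* did overlap, at 33.8 to 35.9% with LPS and 32.1 to 34.9% with IFN-β (exact permutation p = 0.4). *Mx1* was at 16.5% (SD 2.38) with IFN-β and 17.2% (SD 1.98) with LPS (exact permutation p = 0.5), and *Mx2* at 2.53% (SD 0.375) and 2.83% (SD 0.198) (exact permutation p = 0.4), and both overlapped. Without IFN-β library A the mean share of *Mx1* was 0.705 percentage points higher with IFN-β instead of 0.663 lower. In unstimulated DCs *Mx1* made up 33.7, 52.5 and 67.2% in A, B and C, more than any other member.

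**Figure D4:**
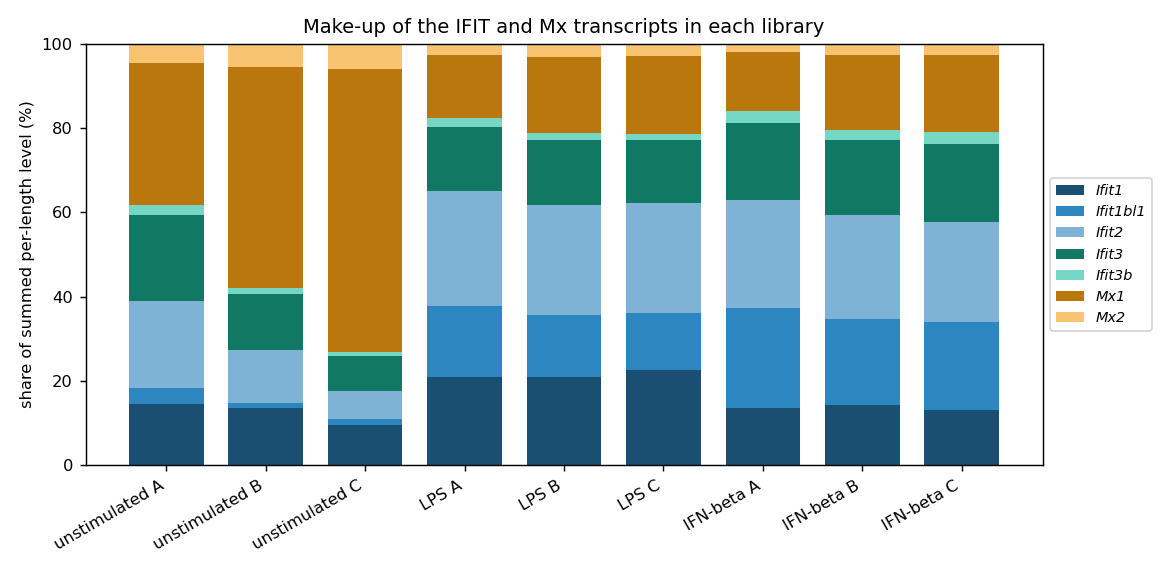
Share of each gene in the summed CPM per kilobase of the 7 genes, as stacked bars to 100% for each of the 9 libraries. *Mx1* takes 33.7 to 67.2% of the unstimulated bars and 13.8 to 18.5% of the stimulated ones. Between the stimuli, the bar of *Ifit1* is shorter and that of *Ifit1bl1* longer in all 3 IFN-β libraries.

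Ratios within gene pairs, chosen after their values were seen, restate the raw counts behind these shares and are no separate support for them. The count of *Ifit1bl1* divided by that of *Ifit1* was 0.138 in unstimulated DCs (SD 0.0756, n = 3), 0.60 with LPS (SD 0.0876) and 1.36 with IFN-β (SD 0.135), and the 3 groups did not overlap. *Ifit3b* over *Ifit3* was 0.137 (SD 0.00577), 0.131 (SD 0.0150) and 0.172 (SD 0.00954) in the same order, with the IFN-β libraries above the rest. *Mx2* over *Mx1* was 0.103 (SD 0.0216), 0.157 (SD 0.010) and 0.146 (SD 0.00173), with the unstimulated libraries below the rest. Across all 9 libraries the ratio of *Ifit3b* to *Ifit3* lay between 0.119 and 0.181, and that of *Mx2* to *Mx1* between 0.0853 and 0.167. That of *Ifit1bl1* to *Ifit1* ranged from 0.0781 to 1.49. Reads from stretches shared by *Ifit3* and *Ifit3b* may be missing, and the effect of this on their ratio was not measured.

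Genes of the interferon pathway were measured as RNA in the same libraries, and signaling by their proteins was not measured. *Ifnb1* had 137, 117 and 93 counts in LPS libraries A, B and C and 9, 5 and 9 counts in IFN-β libraries, against 0, 0 and 1 at rest. It was higher with LPS than with IFN-β (adjusted p = 2.5e-06) and higher in each than at rest (adjusted p = 1.4e-07 and 0.0018). Only its LPS counts carried *Ifnb1* past the filter on low counts, so these p-values belong to a gene kept for its level with LPS. A filter of at least 10 counts in every library removed it. *Stat2* rose by 2.48 (SE 0.20) with LPS and 2.15 (SE 0.20) with IFN-β on the log2 scale, and *Irf9* by 1.20 (SE 0.11) and 0.74 (SE 0.11). Between the stimuli, *Irf9* was lower with IFN-β (log2 fold change -0.46, adjusted p = 0.0056), and the difference of *Stat2* (-0.33, 95% interval -0.76 to 0.09) did not pass, although it did with the library letter as a block (-0.32, adjusted p = 0.046).

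Of 12 tested genes for interferon ligands, receptors, kinases and transcription factors, 11 were higher with LPS and 0 lower (median log2 fold change 1.81), and 11 were higher and 1 lower with IFN-β (median 0.78). The 1 lower was *Irf3* (-0.30, adjusted p = 0.0073), whose protein starts *Ifnb1* transcription, and *Irf7*, an amplifier of interferon expression, rose by 3.34 and 3.12. IFN-β against LPS had 0 higher and 6 lower (median -0.35), among them *Ifnar2*, a receptor chain (-1.17), and *Irf8* (-1.11), and with size-only scaling 3 were lower. The median of all genes tested was -0.04 with LPS, -0.02 with IFN-β and 0.02 between the stimuli. Of these genes, 32.8% were higher with LPS, 23.6% with IFN-β and 25.8% between the stimuli, and 35.4, 23.3 and 23.3% were lower. The counts of each list below are to be set beside these shares.

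Inhibitors of the pathway were also higher: 8 of 8 with LPS (median 0.95) and 7 of 8 with IFN-β (median 0.80). *Usp18*, which blocks signaling at the receptor, rose by 4.71 and 3.69, and *Socs1*, an inhibitor of the receptor kinases, by 2.76 and 1.83. Between the stimuli 5 of 8 were lower with IFN-β and 0 higher (median -0.70), with *Socs3* at -2.58. With size-only scaling the inhibitors were 5 higher and 1 lower with LPS, 5 higher and 1 lower with IFN-β, and 3 higher and 5 lower between the stimuli, and with the library letter as a block 1 was higher and not 0 between the stimuli.

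Of 31 other interferon-induced effectors, 30 were higher and 1 lower with LPS (median 2.56), and 29 were higher and 0 lower with IFN-β (median 1.93), where size-only scaling gave 2 lower. The 7 IFIT and Mx genes had medians of 5.74 and 5.12. The largest were *Rsad2*, encoding viperin, with 8.05 (SE 0.50) and 6.22 (SE 0.46), its neighbor *Cmpk2*, a nucleotide kinase, with 7.50 and 5.54, and *Isg20*, an exonuclease, with 6.07 and 5.41. Between the stimuli, 14 of the 31 were lower with IFN-β and 1 was higher (median -0.46, against -0.93 for the 7 genes), with *Cmpk2* at -1.97 and *Rsad2* at -1.83. The number lower was 24 in the fit of only the stimulated libraries and also without unstimulated library C.

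Sensors of viral nucleic acid moved in both directions. With LPS 8 of 10 were higher and 2 lower (median 2.49), and with IFN-β 8 were higher and 1 lower (median 2.19). *Ifih1*, which senses long double-stranded RNA, rose by 4.32 and 2.93, and *Tlr3* by 3.94 and 3.41. *Mavs*, the adaptor of the RNA sensors, was lower under both (-1.30 and -0.34), and *Sting1*, the adaptor of cGAS, was lower with LPS (-0.92) while with IFN-β its 0.21 did not pass (adjusted p = 0.12, and 0.016 with the letter as a block). Between the stimuli 3 were higher and 5 lower with IFN-β (median -0.53), where 25.8% of all tested genes were higher and 23.3% lower. With size-only scaling, or without LPS library A or IFN-β library B, 2 were lower. Without LPS library C or IFN-β library C, 3 were.

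NF-κB targets had the widest median difference between the stimuli of the 6 lists. All 14 were higher with LPS (median 4.92), and 10 were higher with IFN-β (median 0.83), and all 14 were lower with IFN-β than with LPS (median -4.24). *Il6*, *Il12b* and *Ptgs2* rose by 10.18, 10.05 and 10.42 with LPS, and differed by -8.36, -9.72 and -8.19 between the stimuli. With IFN-β *Il6* rose by 1.81 (adjusted p = 0.0013), and the 0.33 of *Il12b* did not pass (adjusted p = 0.13, and 0.04 with the letter as a block). By comparison, *Ifit1*, the member that differed most between the stimuli, differed by -1.54.

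Of the relatives of the Mx proteins in the dynamin superfamily, which work in membrane fission and fusion, 6 were tested. Among all tested genes, 32.8% were higher and 35.4% lower with LPS, and 23.6% and 23.3% with IFN-β. Between the stimuli these shares were 25.8% and 23.3%. Of the 6 relatives, LPS raised 1, *Dnm1l* (0.38), which size-only scaling did not call higher, and lowered 4 (median -0.19), with *Mfn2* at -0.47. IFN-β raised 1, *Dnm3* (1.62, SE 0.35), and lowered 2 (median -0.01), and between the stimuli 2 were higher and 1 lower with IFN-β (median 0.12). These counts were unstable: size-only scaling gave 4 lower with IFN-β and 5 higher and 0 lower between the stimuli, the letter as a block gave 2 higher with IFN-β, and between the stimuli 1 was higher without LPS library A or IFN-β library B and 0 lower without IFN-β library C. Against unstimulated DCs none had a log2 fold change near those of *Mx1* and *Mx2*. Between the stimuli *Dnm3* was at 1.45 (SE 0.36), larger in size than *Mx1* and *Mx2* and opposite in direction. However, *Dnm3* had only 7 to 18 counts per library at rest, 9 to 12 with LPS and 24 to 43 with IFN-β, so that a filter of at least 10 counts in every library removed it.

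Genes around the clusters were also examined, up to 100 kb from their ends. Near the *Ifit* cluster, *Ifit1bl2* had 36, 45 and 18 counts at rest, 557, 514 and 571 with LPS and 373, 231 and 235 with IFN-β. It was higher with both (log2 fold change 4.49, SE 0.26, and 3.20, SE 0.26) and lower with IFN-β than with LPS (-1.29, SE 0.21, adjusted p = 0.00044), while its level with LPS, 17.4 CPM, was far below the 2290 CPM of *Ifit1* on the other side of the shared stretch. *Ch25h*, which makes 25-hydroxycholesterol, lies 75.5 kb from the cluster and rose by 6.92 (SE 0.34) with LPS and 3.05 (SE 0.31) with IFN-β. *Lipa*, encoding lysosomal acid lipase, lies 23.2 kb away and was lower with LPS (-0.47, adjusted p = 0.00092) and higher with IFN-β (0.54, adjusted p = 0.00085). The non-coding *Gm26902*, beside *Ch25h*, rose by 4.79 and 2.11. Between *Mx1* and *Mx2*, *Fam3b* was the gene that passed the filter, with 3 to 11 counts per library at rest, 141 to 201 with LPS and 28 to 51 with IFN-β. It rose by 4.91 (SE 0.33) and 2.58 (SE 0.36).

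Finally, the tested genes whose log2(CPM + 0.5) over the 9 libraries was most like that of each member were listed, as a description, since the libraries form 3 groups and any gene that separates them in the same order correlates highly. The closest was *Parp12* for *Ifit1* (Pearson r = 0.9995), *Ifi203-ps* for *Ifit1bl1* (0.9974), *Znfx1* for *Ifit2* (0.999) and *Ifi204* for *Ifit3* (0.9991). It was *Irgm2* for *Ifit3b* (0.9995), *Parp11* for *Mx1* (0.999) and *Mlkl* for *Mx2* (0.9989). *Samhd1* and *Epsti1* were among the 3 closest for both *Ifit1bl1* and *Ifit3b*, and *Parp11* for both *Mx* genes, and *Stat2* was among the 3 closest to *Ifit2*. With a pseudocount of 2 CPM, 15 of the 21 pairs remained. *Hprt*, a housekeeping gene, was at 35.5 CPM at rest, 26.7 with LPS and 32.5 with IFN-β, lower with LPS (-0.41, SE 0.066, adjusted p = 0.00024).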

How the data were processed

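The authors trimmed adapters with Trim Galore (0.6.0 in the submitters' processing notes), mapped the paired 100-base reads of ribosome-depleted libraries to GRCm38/mm10 with STAR (2.7.8a in those notes; the study's methods name another version) and deposited the raw counts per gene on a GENCODE release, not normalized or filtered. STAR's gene counting keeps uniquely mapped reads, and the strand setting is not given in the sources used here. Tests used edgeR 4.0.16 in R 4.3.3 on these counts: filterByExpr, TMM factors, 1 term per condition over 9 libraries, quasi-likelihood F-tests and Benjamini-Hochberg adjustment over 16260 genes, with a threshold of 0.05. The SE is the absolute log2 fold change over the square root of F. Intervals cover 95%. CPM per kilobase used merged GENCODE M21 exons, a later release than that of the counts. Shares were compared by exact permutation tests.

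The members and lists were chosen with earlier results of these data known. The genes named are the 7 members, the 3 highest and 3 lowest of each list in each comparison, *Ifnb1*, *Stat2*, *Irf9*, *Hprt*, the most correlated genes and neighbors of the clusters within 100 kb; not all are printed, some results are not reported here, and the gene pair ratios and marker genes were picked later. One list symbol was matched through its gene identifier. After group means were subtracted, libraries with the same letter correlated across genes at 0.13 to 0.55 (9 pairs) and those with different letters at -0.48 to 0.06 (18 pairs); the pairing comes from the data, as nothing in the labels explains the letters. Every pair of replicates differed by more than counting noise. Alternatives were DESeq2 1.42.0, size-only scaling, upper-quartile factors, other filters and thresholds, fits of 2 groups, the letter as a block and each library left out. Promoter windows are those of RefSeq (GRCm38.p6).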

Additional observations from a re-analysis of the deposited data

How the results depend on the processing

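All 7 genes were higher under both stimuli in each of the 18 alternative settings, and *Ifit1*, *Mx1* and *Mx2* were lower with IFN-β than with LPS in all 16 alternative fits. Requiring an adjusted p under 0.01 or a log2 change of 1 or more in size left 3 and 2 of these, as *Mx1* is at -0.93. The number of members lower with IFN-β was 5 instead of 3 without a filter on low counts and in the fit of the 2 groups alone. *Ifit2* then passed at -0.95 in each, and *Ifit3* at -0.60 in each, and with the replicate block *Ifit2* passed at -0.94; the block changed no other call of a member, and its changes among other genes with printed values stand beside them, and moved no count of all genes by over 1.5 times. With 1 library left out, *Ifit2* ranged from -1.11 to -0.77, *Ifit3b* from -0.41 to 0.06 and the share difference of *Mx1* from -1.8 to 0.705 percentage points. Scaling by library size only shifted the median over all genes, on the log2 scale, by -0.58 with LPS, by -0.31 with IFN-β and by 0.27 between the stimuli, and *Ifit3b* was then at 0.04, under the median of 0.29. Under that scaling 21.9, 22.3 and 77.9% of called genes were higher, in place of 48.1, 50.3 and 52.5%. With a log2 change of 1 or more the genes called were 5429, 2052 and 2834 in place of 11084, 7631 and 7989. With shares of raw counts no direction changed, but those of *Ifit2* then overlapped between the stimuli (exact permutation p = 0.4). The cause of the other changes was not tested. Each member had at least 37 counts in each library.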
